A study of Rattus norvegicus with 9 samples.

Results

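Chemokines are small secreted proteins that draw leukocytes along a gradient through receptors on their surface. CC chemokines such as Ccl2 and Ccl3 act mainly on monocytes, macrophages and lymphocytes, and most CXC chemokines act on neutrophils or T cells. Microglia, the resident macrophages of the retina, are a known source of both families, and chemokine genes are classic targets of NF-kB, AP-1 and interferon signalling. The rows of the gene count table were taken for 9 of them: the CC chemokines Ccl2, Ccl3, Ccl4, Ccl5 and Ccl7 and the CXC chemokines Cxcl1, Cxcl2, Cxcl10 and Cxcl16. They were chosen by name from the 28343 genes of the table and all 9 were present. After a filter on low counts 8 of the 9 could be tested among 11748 genes, and Ccl5 could not.

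The libraries came from CD11b-positive cells of Dark Agouti rats, an inbred strain, sorted by flow cytometry after whole retinas had been digested with papain. The 4 diabetic libraries (numbered 1, 2, 4 and 5) came from rats given streptozotocin, a toxin of pancreatic beta cells, at 55 mg/kg and an age of 8 to 10 weeks, with 2 units of insulin whenever blood glucose passed 30 mmol/l. The 5 control libraries (numbered 1, 3, 4, 5 and 6) came from rats injected with citrate buffer, and both groups were fasted for 12 hours beforehand and studied 4 weeks later. The labels count 5 control and 4 diabetic rats, give no sex, and describe a SmartSeq preamplification. CD11b is also carried by monocytes, neutrophils and border macrophages, and sorting in bulk means that fewer cells of a type and less RNA per cell cannot be told apart.

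Total counts per library ran from 6228756 to 11332823. Of 13 microglial marker genes 11 could be tested. The list held 2.52% to 3.47% of control counts and 3.03% to 3.22% of diabetic counts, so these genes were abundant in every library. The lowest shares were in control 6 (2.52%) and control 4 (2.76%). Siglech was listed at 0 in every library, which may be a matter of its symbol. Controls 4 and 6 stood apart. The immediate-early and stress genes of a list for the response to cell isolation held 2.49% and 3.02% of their counts, against 0.461% to 1.02% in controls 1, 3 and 5 and 1.34% to 2.18% in the diabetic libraries. The tests of the chemokines and the counts of the pathway lists below are therefore given with and without controls 4 and 6, and single genes of the lists where their sign turned. That pair was set aside with its high inflammatory gene levels already known, so the direction found without it is partly fixed by the choice.

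Several of the genes lie in neighbouring pairs on the rat genome build Rnor6, taken from the reference transcripts in the deposited assemblies. Ccl2 (ENSRNOG00000007159, chr10:69412017-69413870) and Ccl7 (ENSRNOG00000000239, chr10:69423086-69424979) are neighbours on the plus strand, 9215 bases apart. Ccl3 (ENSRNOG00000011205, chr10:70869513-70871066, minus strand) and Ccl4 (ENSRNOG00000011406, chr10:70884531-70886355, plus strand) are 13464 bases apart. Cxcl2 (ENSRNOG00000002792, chr14:18731378-18733391) and Cxcl1 (ENSRNOG00000002802, chr14:18743685-18745457) lie 10293 bases apart on the minus strand. Cxcl10 (ENSRNOG00000022256, chr14:17210733-17212930) is on the plus strand, and Cxcl16 (ENSRNOG00000026647, chr10:57060007-57064600) is on the minus strand. The spans cover the whole transcript with its introns, with 3 exons in each CC gene, 4 in Cxcl1, Cxcl2 and Cxcl10, and 5 in Cxcl16.

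Because several of these genes moved together across libraries, the 250 bases before their start sites are shown, from the RefSeq promoter table on build GRCr8, which held 5 of the 9 genes. Capitals mark matches on either strand to the NF-kB consensus, to the AP-1 site TGANTCA, or to the interferon response element (GAAA, any 2 bases, then GAAA), and overlapping matches run into each other. The windows are Ccl7 at chr10:67513845-67514094 (plus strand), Cxcl1 at chr14:17479322-17479571 (minus strand), Cxcl2 at chr14:17467256-17467505 (minus strand), Cxcl10 at chr14:15988816-15989065 (plus strand) and Cxcl16 at chr10:55669951-55670200 (minus strand).
Cxcl1: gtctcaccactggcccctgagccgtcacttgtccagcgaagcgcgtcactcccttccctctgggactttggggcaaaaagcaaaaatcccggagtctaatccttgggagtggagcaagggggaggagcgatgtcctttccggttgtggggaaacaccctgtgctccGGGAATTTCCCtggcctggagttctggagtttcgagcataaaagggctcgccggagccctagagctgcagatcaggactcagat
Cxcl2: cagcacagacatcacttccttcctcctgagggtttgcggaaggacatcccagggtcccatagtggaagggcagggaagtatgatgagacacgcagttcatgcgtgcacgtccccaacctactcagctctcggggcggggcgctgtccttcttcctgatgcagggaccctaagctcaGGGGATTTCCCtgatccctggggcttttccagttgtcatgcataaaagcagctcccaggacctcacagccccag
Cxcl10: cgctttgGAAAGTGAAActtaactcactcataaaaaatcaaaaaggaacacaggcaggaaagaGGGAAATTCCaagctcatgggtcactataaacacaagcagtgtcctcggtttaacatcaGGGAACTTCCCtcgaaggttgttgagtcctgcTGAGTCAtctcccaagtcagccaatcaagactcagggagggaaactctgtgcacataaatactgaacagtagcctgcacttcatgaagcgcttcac
Ccl7: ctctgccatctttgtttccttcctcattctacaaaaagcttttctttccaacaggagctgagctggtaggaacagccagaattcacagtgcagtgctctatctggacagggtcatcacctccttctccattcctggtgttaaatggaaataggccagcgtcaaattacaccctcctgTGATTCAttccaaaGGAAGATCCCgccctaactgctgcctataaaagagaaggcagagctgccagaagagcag
Cxcl16: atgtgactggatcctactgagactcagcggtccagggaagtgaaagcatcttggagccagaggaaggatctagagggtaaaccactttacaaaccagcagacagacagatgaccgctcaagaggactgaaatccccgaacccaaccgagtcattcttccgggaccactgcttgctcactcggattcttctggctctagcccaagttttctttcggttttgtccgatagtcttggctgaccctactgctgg
The NF-kB consensus matched in 4 of the 5 windows, in Cxcl1, Cxcl2, Cxcl10 and Ccl7, and in 6.33% of all 33465 promoters of the table over the same length. In Cxcl1 and Cxcl2 the matches began 84 and 74 bases before the start. The AP-1 site matched in Ccl7 and Cxcl10 (6.34% of all promoters), and the interferon response element in Cxcl10 alone of the 5 (3.41% of all promoters). Cxcl16 held none of these letters in its window. These are matches of letters and no binding was measured.

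The diabetic libraries lay in a narrower band than the controls, and inside the control range for 5 of the 8 genes (Ccl2, Ccl3, Ccl4, Cxcl1 and Cxcl2). In the quasi-likelihood test of edgeR with adjustment over all genes, 0 of the 8 tested chemokines differed between diabetic and control cells at an adjusted p of 0.05, where 0.0681% of all genes did (8 of 11748; 0.0426% as higher). At an unadjusted p of 0.05 the count was again 0 of 8, where 18.9% of all genes passed (8.94% as higher). DESeq2 and limma-voom each called 0 chemokines as well, where 3.36% and 0.034% of all genes were called. At an unadjusted p of 0.05 each had 1 chemokine, Cxcl16 in DESeq2 and Ccl7 in limma-voom. Of all genes 2613 of 17822 passed that level in DESeq2 and 2078 of 11748 in limma-voom. The log2 fold change was below 0 for 6 of the 8 (all but Ccl7 and Cxcl10), as it was for 49.7% of all genes, with a median of -0.72 against 0.0017 over all genes tested, and adjusted p-values ran from 0.297 to 0.785. None of the 8 had diabetic libraries that all lay outside the control range, where 8.44% of all genes did.

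The spread was the larger feature. The SD of log2 CPM between control libraries had a median of 1.63 over the 8 chemokines, against 0.264 over all genes tested. Between diabetic libraries it was 0.487, against 0.213. It was larger in control than in diabetic libraries for all 8, and for 60.5% of all genes. Without controls 4 and 6, the log2 fold changes of Ccl2, Ccl3, Ccl4, Cxcl1 and Cxcl2 turned from below to above 0, and only that of Cxcl16 stayed below 0. In that fit 0 chemokines passed the adjusted threshold, as did 0.00% of all genes. At an unadjusted p of 0.05, 5 of the 8 passed (Ccl2, Ccl3, Ccl4, Ccl7 and Cxcl10, all with values above 0), where 14.9% of all genes passed in either direction and 7.20% as higher. Ccl2, Ccl3, Ccl4 and Ccl7 had all 4 diabetic libraries above controls 1, 3 and 5, and 15.3% of all genes had groups apart in that set of 7 libraries.

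**Figure D1:**
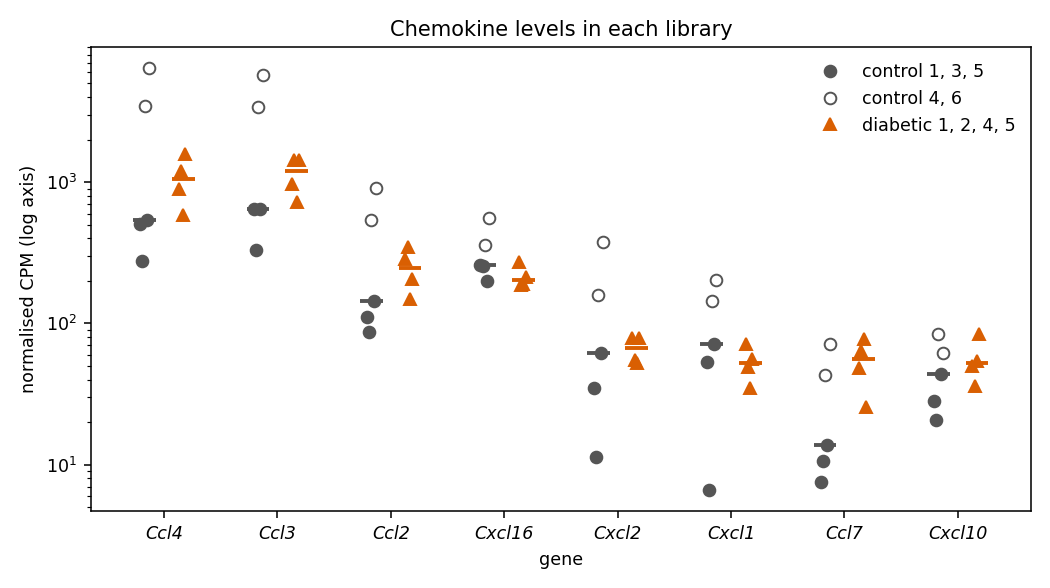
Normalised CPM on a log axis for the 8 chemokines that could be tested, ordered by level per kilobase, with 1 point per library (circles control, open for controls 4 and 6; triangles diabetic) and a bar at each group's median. For Ccl2, Ccl3 and Ccl4 all diabetic libraries sit above controls 1, 3 and 5 and below controls 4 and 6.

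Levels between genes were compared per kilobase of the reference transcript, which 8 of the 9 genes had. In diabetic libraries, CPM per kilobase was 1693 ± 680 (SD, n = 4) for Ccl4 and 1509 ± 460 for Ccl3, which overlapped. Ccl2 followed at 296 ± 103 and Cxcl16 at 126 ± 22.5, with ranges of 180 to 413 and 110 to 159 that did not overlap each other or those of Ccl3 and Ccl4 (lowest 931). Cxcl2 (61.6 ± 13.3), Cxcl1 (57.3 ± 16.4), Ccl7 (63.0 ± 26.1) and Cxcl10 (49.5 ± 17.9) could not be ordered beyond their spread. In control libraries the order of the means was the same for Ccl4, Ccl3, Ccl2, Cxcl16, Cxcl2 and Cxcl1, with Cxcl10 and Ccl7 last (42.0 ± 22.6 and 34.4 ± 32.2, SD, n = 5). The control range of Ccl2 (105 to 1086) overlapped those of Cxcl16 (117 to 328) and Ccl3 (437 to 7633), so these genes could not be ordered there beyond their spread. Ccl3 and Ccl4 together made up 60.8% to 84.8% of the counts on the 9 genes in every library, and the 9 genes made up 0.101% to 1.20% of control counts and 0.189% to 0.382% of diabetic counts.

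Ccl2 and Ccl7 recruit monocytes through the receptor Ccr2. Ccl2 was at 111, 87.3, 542, 145 and 907 CPM in controls 1, 3, 4, 5 and 6, and at 288, 345, 150.0 and 206 CPM in diabetic 1, 2, 4 and 5. Every diabetic library lay above controls 1, 3 and 5 and below controls 4 and 6. Its log2 fold change was -0.53 (SE 0.82, edgeR quasi-likelihood adjusted p = 0.733). The sign was not stable: it was 0.16 without control 6 alone and 1.11 (SE 0.45, adjusted p = 0.218) without controls 4 and 6.

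Ccl7 departed from its neighbour. It was at 7.56, 10.6, 43.3, 13.8 and 71.0 CPM in controls 1, 3, 4, 5 and 6, and at 48.0, 63.7, 77.0 and 25.4 CPM in diabetic 1, 2, 4 and 5. The highest of all 9 libraries was diabetic 4, which had the lowest Ccl2, Ccl3 and Ccl4 of its group. The log2 fold change was 0.88 (SE 0.78, edgeR quasi-likelihood adjusted p = 0.521) and 2.32 (SE 0.71, adjusted p = 0.140) without controls 4 and 6. It stayed above 0 in all 19 alternatives, with adjusted p-values from 0.140 to 0.944. In the alternative based on the deposited assemblies the Ccl7 transcript was present in 4 libraries and set to 0 elsewhere. In the authors' deposited table Ccl7 had a log2 fold change of 1.08 and a p-value of 0.0193 before and 0.221 after adjustment, where 2.10% of that table's genes had an adjusted p below 0.05.

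The ratio of Ccl7 counts to Ccl2 counts within a library needs no scaling between libraries. It was 0.0679, 0.121, 0.0798, 0.0954 and 0.0783 in controls 1, 3, 4, 5 and 6, including both controls with high levels of each gene. It was 0.167, 0.185, 0.513 and 0.123 in diabetic 1, 2, 4 and 5, so all 4 diabetic libraries lay above all 5 controls, diabetic 5 by a narrow margin over control 3. The mean log2 ratio was -3.53 in control and -2.25 in diabetic libraries, a difference of 1.28 (two-sided exact permutation test, p = 0.00794, the smallest these 126 splits can give; adjusted p = 0.0397 over 5 ratios). This ratio and the other 4 were chosen after the counts had been seen, so their p-values are descriptive and do not establish a difference. How often the ratios of other gene pairs separate the groups was not computed. Without diabetic 4 the difference was 0.85 (exact permutation p = 0.0179, again the smallest possible), and without controls 4 and 6 it was 1.19 (exact permutation p = 0.0571).

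The remaining ratios did not separate the groups in this way. Ccl7 to Ccl3 ran from 0.0117 to 0.0320 in control and from 0.0178 to 0.106 in diabetic libraries (exact permutation p = 0.0397, adjusted 0.0992). Ccl3 to Ccl4 ran from 0.905 to 1.29 in control and from 0.899 to 1.24 in diabetic libraries (adjusted exact permutation p = 0.952). Cxcl1 to Cxcl2 and Cxcl10 to Cxcl1 had adjusted exact permutation p-values of 0.853 and 0.794. These 4 ratios had, without controls 4 and 6, unadjusted exact permutation p-values of 0.171 to 1.

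**Figure D2:**
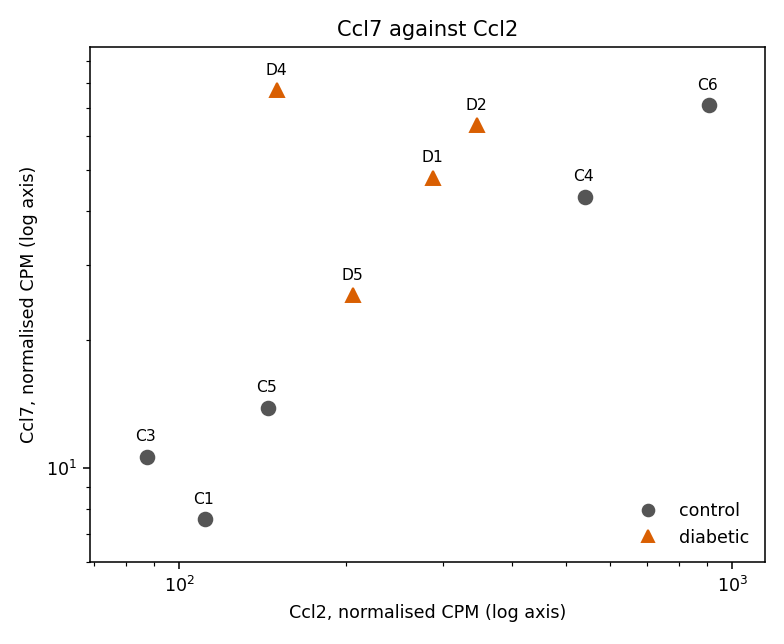
Ccl7 against Ccl2 in normalised CPM, both on log axes, with 1 point per library labelled by group letter and number. The 4 diabetic triangles lie above the line of the 5 control circles, farthest in diabetic 4 (Ccl7 77.0, Ccl2 150.0 CPM).

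Border macrophage genes are given here because a CD11b sort can hold such cells. All 9 tested members of that list had log2 fold changes above 0 (median 0.97), 0 of them called over all genes, and all 9 were above 0 without controls 4 and 6 too (median 0.69). Cd163, a scavenger receptor of border macrophages, was at 57.4 ± 22.1 CPM over the controls (SD, n = 5) and 168 ± 64.4 CPM over the diabetic libraries (SD, n = 4) (log2 fold change 1.55, edgeR quasi-likelihood adjusted p = 0.0895). The list held 0.0393% to 0.0922% of control counts and 0.0828% to 0.179% of diabetic counts. Its highest value was in diabetic 1 (0.179%) and not in diabetic 4 (0.120%), where Ccl7 was highest. Its part in the Ccl7 values was not tested.

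Ccl3, Ccl4 and Ccl5 act on macrophages and T cells. Ccl3 was at 649, 331, 3429, 643 and 5778 CPM in controls 1, 3, 4, 5 and 6, and at 978, 1431, 729.6 and 1429.9 CPM in diabetic 1, 2, 4 and 5. Ccl4 was at 503, 276, 3455, 536 and 6382 CPM in the same controls and at 894, 1202, 587 and 1590.4 CPM in the diabetic libraries. For both genes the diabetic libraries lay between controls 1, 3 and 5 on the low side and controls 4 and 6 on the high side, and the highest control was 17.4 and 23.1 times the lowest. Diabetic libraries differed among themselves by 1.96 and 2.71 times.

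The log2 fold change was -0.92 (SE 0.96) for Ccl3 and -1.06 (SE 1.08) for Ccl4, with edgeR quasi-likelihood adjusted p-values of 0.593 and 0.583. Without controls 4 and 6 they were 1.07 (SE 0.47) and 1.28 (SE 0.56), with adjusted p-values of 0.255 and 0.259. Ccl5, which T and NK cells make in quantity, had 6, 5, 8, 0 and 2 counts in controls 1, 3, 4, 5 and 6, and 7, 2, 2 and 0 counts in diabetic 1, 2, 4 and 5. Summed over the groups this was 0.419 CPM in control (95% exact Poisson interval 0.260 to 0.641) and 0.319 CPM in diabetic cells (0.159 to 0.571), for counting error only. The intervals overlapped, and a difference was not detectable at this depth. Of the T and NK cell markers Cd3d, Cd3g, Nkg7 and Gzmk were listed at 0 in all 9 libraries, and 2 of 18 could be tested.

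Cxcl1 and Cxcl2 attract neutrophils through Cxcr2. Cxcl1 was at 53.7, 6.60, 144, 71.6 and 202 CPM in controls 1, 3, 4, 5 and 6, and at 71.8, 49.5, 35.1 and 56.1 CPM in diabetic 1, 2, 4 and 5. Control 3 was 30.6 times below control 6, and the diabetic libraries lay within a factor of 2.05 of each other inside that range. Cxcl2 was at 35.2, 11.3, 159, 61.8 and 379 CPM in the controls and at 78.3, 54.8, 52.6 and 78.4 CPM in the diabetic libraries. The controls spanned a factor of 33.5 and the diabetic libraries 1.49. The log2 fold changes were -0.84 (SE 0.86) and -0.96 (SE 0.99), with edgeR quasi-likelihood adjusted p-values of 0.586 and 0.591. Both turned without controls 4 and 6, to 0.27 (SE 0.79, adjusted p = 0.899) and 0.87 (SE 0.64, adjusted p = 0.521), and in that comparison the groups still overlapped. Of 13 neutrophil markers 5 were tested and 0 called, with 4 log2 fold changes above 0 and 1 below, and the same counts without controls 4 and 6. S100a8 and S100a9 had all diabetic libraries above all controls, as 4.27% of all genes did, and Csf3r, a growth factor receptor that macrophages also carry, had all below (4.16% of all genes). S100a8 was at 0.240 ± 0.373 CPM over the controls (SD, n = 5) and 5.12 ± 3.96 CPM over the diabetic libraries (SD, n = 4) (edgeR quasi-likelihood adjusted p = 0.0895), S100a9 at 2.32 ± 2.52 and 29.9 ± 18.6 CPM (adjusted p = 0.105) and Csf3r at 329 ± 26.1 and 288 ± 9.03 CPM (adjusted p = 0.246), while Mpo, Ltf and Lcn2 were listed at 0 in every library. These markers are named after their values were seen, and their part in the Cxcl1 and Cxcl2 values was not tested.

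Cxcl10, an interferon-induced ligand of Cxcr3 on T cells, had the narrowest control range after Cxcl16. It was at 28.2, 20.8, 83.7, 43.8 and 61.9 CPM in controls 1, 3, 4, 5 and 6, and at 50.2, 36.1, 54.1 and 84.4 CPM in diabetic 1, 2, 4 and 5. Its highest library was diabetic 5 and its lowest control 3. The log2 fold change was 0.24 (SE 0.45, edgeR quasi-likelihood adjusted p = 0.785), 0.86 (SE 0.43, adjusted p = 0.320) without controls 4 and 6, and -0.027 without diabetic 5. The 17 interferon response genes tested beside it had 0 calls, 7 log2 fold changes above 0 and 10 below. Those named had log2 fold changes on both sides of 0, at -2.21 for Gbp2, -3.16 for Cd274 and 0.84 for Isg15 (edgeR quasi-likelihood adjusted p 0.243 to 0.319). The list had 10 above 0 and 7 below without controls 4 and 6, with 0 called, and the values were -0.27 for Gbp2, 0.38 for Cd274, whose sign turned, and 0.91 for Isg15 (adjusted p 0.307 to 0.883).

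Cxcl16 is made as a membrane protein that binds Cxcr6, takes up oxidised lipoprotein and is released by the proteases Adam10 and Adam17. It was at 261, 254, 361, 199 and 560.1 CPM in controls 1, 3, 4, 5 and 6, and at 270.4, 188, 189.9 and 214 CPM in diabetic 1, 2, 4 and 5. It had the narrowest range of the 8 genes, 2.82-fold over controls and 1.44-fold over diabetic libraries, and diabetic 2 and 4 were lower than every control. Its log2 fold change of -0.60 (SE 0.33, edgeR quasi-likelihood adjusted p = 0.297) had the smallest p of the 8 (0.0691), and it kept its sign in all 19 alternatives, from -0.75 to -0.15. Without controls 4 and 6 it was -0.15 (SE 0.15, adjusted p = 0.643). Adam10 was at 353 ± 45.5 CPM over the controls (SD, n = 5) and 276 ± 29.4 CPM over the diabetic libraries (SD, n = 4) and Adam17 at 250 ± 11.2 and 219 ± 8.60 CPM, both with all diabetic libraries below all controls, where 4.16% of all genes were. Their log2 fold changes of -0.35 and -0.19 did not pass (edgeR quasi-likelihood adjusted p = 0.142 and 0.215), nor did Rhbdf2, a cofactor of Adam17 (-0.15, adjusted p = 0.676, and 0.19 without controls 4 and 6).

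**Figure D3:**
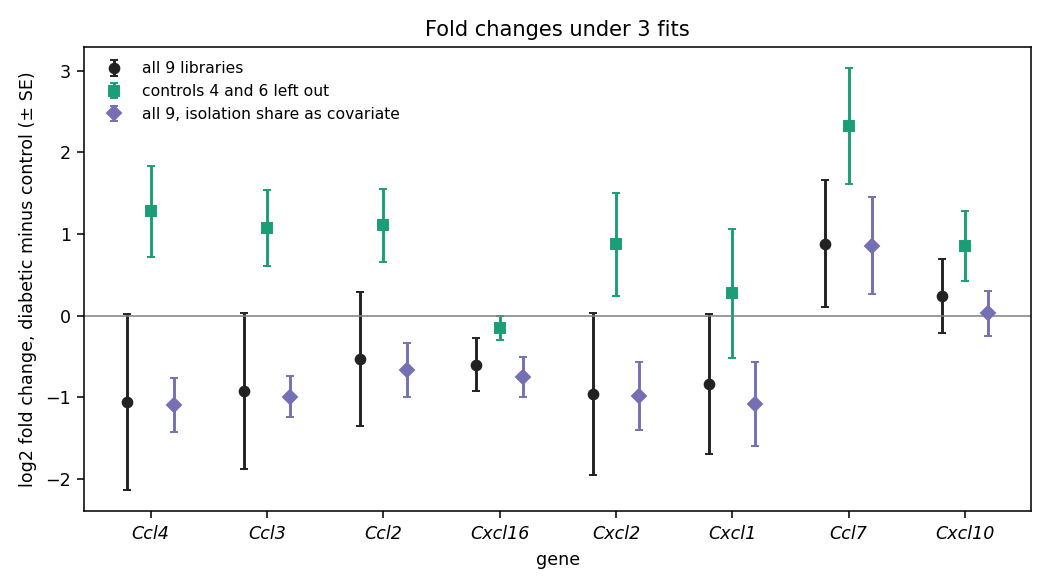
Log2 fold change of diabetic minus control cells with its SE for each chemokine in 3 fits: all 9 libraries, controls 4 and 6 left out, and all 9 with the share of the isolation response list as covariate. Ccl2, Ccl3, Ccl4, Cxcl1 and Cxcl2 change sign when controls 4 and 6 are left out, and the covariate narrows the errors around values near those of the first fit.

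The summed share of the 9 chemokines, most of it Ccl3 and Ccl4, followed the share of immediate-early and stress genes across libraries. Ccl7, highest in diabetic 4, Cxcl10, highest in diabetic 5, and Cxcl16, higher in controls 1 and 3 than in diabetic 2, 4 and 5, did not keep that order. Nor did Cxcl1, with control 5 above diabetic 2, 4 and 5, or Cxcl2, with control 5 above diabetic 2 and 4. Ccl2 was higher in diabetic 1 and 2 than in diabetic 5. The lowest share of counts on the 9 chemokines was in control 3 (0.101%), which also had the lowest share of the isolation response list (0.461%). Controls 1 and 5 followed (0.170% and 0.175% beside 1.02% and 0.876%), then diabetic 4 (0.189% beside 1.34%), diabetic 1 (0.287% beside 1.85%), diabetic 2 (0.360% beside 2.00%) and diabetic 5 (0.382% beside 2.18%). Controls 4 (0.761% beside 2.49%) and 6 (1.20% beside 3.02%) were highest in both. Thus the 2 shares put the libraries in the same order, apart from controls 1 and 5.

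With the log2 share of that list as a covariate in the edgeR fit, the SE of the Ccl3 fold change went from 0.96 to 0.25 and that of Ccl4 from 1.08 to 0.33. In that fit 3 of the 8 chemokines passed an adjusted p of 0.05, all with lower values in diabetic cells, where 13.7% of all genes passed (8.63% as lower). They were Ccl3 (log2 fold change -0.99, quasi-likelihood adjusted p = 0.00649), Ccl4 (-1.09, adjusted p = 0.0169) and Cxcl16 (-0.75, adjusted p = 0.0266). Ccl2 (-0.67), Cxcl1 (-1.08) and Cxcl2 (-0.99) did not pass (adjusted p 0.0850 to 0.150), and Cxcl10 was at 0.025 and Ccl7 at 0.85 (SE 0.59, adjusted p = 0.323). The covariate is computed from the same counts, and a share of 1.34% to 2.18%, where the diabetic libraries lie, holds no control library. What part of the chemokine values the isolation of the cells set was not tested.

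**Figure D4:**
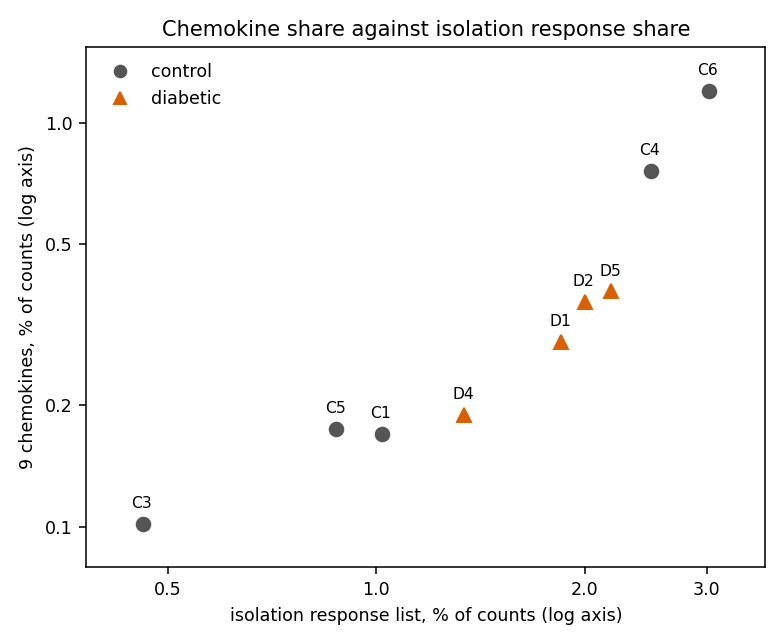
Percent of counts on the 9 chemokines against percent of counts on the isolation response list, both on log axes, with 1 point per library labelled by group letter and number. The diabetic libraries (0.189% to 0.382%) fill the gap between controls 1, 3 and 5 and controls 4 and 6 on both axes.

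Of the 25 isolation response genes tested 0 were called, 10 had log2 fold changes above 0 and 15 below (median -0.34). All 25 were above 0 without controls 4 and 6 (median 1.23), with 0 called and 12 at an unadjusted p of 0.05. In that fit 14.9% of all genes passed the unadjusted level, and 7.20% as higher. Controls 4 and 6 had the highest shares of this same list, so that direction is partly fixed by leaving them out. Fos, an immediate-early factor of AP-1, was at 293, 67.7, 796, 287 and 1104 CPM in controls 1, 3, 4, 5 and 6 and at 579, 586, 426 and 1209 CPM in diabetic 1, 2, 4 and 5, so its highest library was diabetic. Atf3, a stress-induced factor, was at 181 ± 201 CPM over the controls (SD, n = 5) and 87.6 ± 78.3 CPM over the diabetic libraries (SD, n = 4) (log2 fold change -1.04, edgeR quasi-likelihood adjusted p = 0.637). The smallest p-values belonged to Hbegf (-3.33), Maff (-2.79), Nr4a2 (-2.21) and Klf2 (1.03), with edgeR quasi-likelihood adjusted p-values of 0.297 to 0.412. In the fit without controls 4 and 6, Atf3 was at 1.31, Hbegf at 0.064, Maff at 0.60 and Nr4a2 at 0.67, so these signs turned.

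Genes that induce chemokines or are induced beside them by NF-kB had 0 calls among 20 tested. In total 17 had log2 fold changes below 0 and 3 above, with a median of -0.82. The signs of 15 turned without controls 4 and 6, with 16 above 0 and 4 below, a median of 0.36 and again 0 called. Among them Il1b (1.16), Nfkbiz (0.93) and Icam1 (0.34) turned to above 0 (edgeR quasi-likelihood adjusted p 0.521 to 0.833). Il1b, the cytokine interleukin-1 beta, was 31.6 times higher in the mean CPM of controls 4 and 6 than in that of controls 1, 3 and 5. That factor was 11.2 for Ccl4, 8.51 for Ccl3, 7.44 for Cxcl2, 6.33 for Ccl2, 5.36 for Ccl7, 3.93 for Cxcl1, 2.36 for Cxcl10 and 1.93 for Cxcl16. Nfkbia, the inhibitor that NF-kB itself induces, had log2 fold change 0.22 (adjusted p = 0.827), and Nfkbiz, a nuclear cofactor, had -1.53 (adjusted p = 0.492). Those with the smallest p-values were Cd14 (0.59), the lipopolysaccharide co-receptor, and Tlr2 (-0.67), a receptor of bacterial lipoproteins, followed by Nfkb1 (-0.43) and the adhesion molecule Icam1 (-2.35), with edgeR quasi-likelihood adjusted p-values of 0.192 to 0.323. Tlr2 was at 865 ± 348 CPM over the controls (SD, n = 5) and 544 ± 13.6 CPM over the diabetic libraries (SD, n = 4), with all diabetic libraries below all controls, as for 4.16% of all genes, and it was the 1 gene of the 20 with such groups.

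The likeness of other genes to each chemokine was measured as Pearson's r of log2 CPM over the 9 libraries, which share 2 high controls, and is a description. Ccl3 was most like Ccl4 (0.996), then Ccrl2 (0.985), a non-signalling receptor that binds chemerin, and Id2 (0.978), and Ccl4 was most like the same genes. Ccl2 was most like Ch25h (0.965), the enzyme of 25-hydroxycholesterol, Egr3 (0.964) and Ccl3 (0.964). Cxcl2 was most like the immediate-early genes Ier3 (0.974) and Btg2 (0.969) and Rasgef1b (0.968), and Cxcl1 was most like Zfp143 (0.959), Fosb (0.947) and Cxcl2 (0.940).

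Ccl7, Cxcl10 and Cxcl16 had other companions. Ccl7 was most like Sap18 (0.969), AABR07069599.1 (0.959) and RT1-A3 (0.911), a class I histocompatibility gene, and Cxcl10 was most like Pom121 (0.976), Tp53inp1 (0.963) and Lin7c (0.953). Cxcl16 was most like Zmynd15 (0.996), its neighbour in the RefSeq gene table, then Atp6ap2 (0.976) and Gabpb1 (0.972). The strand setting of the counting is not given, so reads of Cxcl16 and Zmynd15 may be shared. All 28 pairs among the 8 chemokines had r above 0. Without controls 4 and 6, 21 of 28 did, and the 7 below 0 were the 7 pairs with Cxcl16, from -0.22 (Cxcl1) to -0.51 (Ccl7), while r was 0.986 for Ccl3 with Ccl4 and 0.923 for Cxcl1 with Cxcl2.

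The receptors of these chemokines named here were low in level. Ccr1, a receptor of Ccl3, was at 20.5 ± 6.62 CPM over the controls (SD, n = 5) and 29.9 ± 14.3 CPM over the diabetic libraries (SD, n = 4), with log2 fold change 0.54 (edgeR quasi-likelihood adjusted p = 0.376). Ccr2, the receptor of Ccl2 and Ccl7 and a marker of monocytes, was listed at 0 in all 9 libraries. Whether the authors' counting covered this symbol was not tested, so the 0 is not read as a level. Cxcr6, the receptor of Cxcl16, had 4 counts over the controls and 11 over the diabetic libraries.

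Cxcr2, which neutrophils carry, was at 0.766 ± 0.937 CPM over the controls and 2.94 ± 1.71 CPM over the diabetic libraries (log2 fold change 1.85, edgeR quasi-likelihood adjusted p = 0.221). Cxcr3, the receptor of Cxcl10, was at 5.58, 2.60, 1.61, 4.61 and 2.32 CPM in controls 1, 3, 4, 5 and 6, and at 5.44, 5.82, 6.54 and 6.51 CPM in diabetic 1, 2, 4 and 5 (0.85, adjusted p = 0.207). Only control 1 reached the diabetic range. Cxcr4 was at 4.85 ± 2.14 and 9.72 ± 4.16 CPM (1.02, adjusted p = 0.171). The fractalkine receptor Cx3cr1, abundant in microglia, was at 2187 ± 371 and 2395 ± 187 CPM (0.13, adjusted p = 0.560). Of 24 receptors listed, 13 were tested and 0 called, with 8 log2 fold changes above 0 and 5 below, and 7 and 6 without controls 4 and 6. The signs of 3 turned without those controls. Cx3cr1 turned to -0.036, Ccr6 from 0.208 to -0.196 and Ccrl2 from -1.19 to 1.43.

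Among 27 other chemokine ligands 11 were tested and 0 called, with 9 log2 fold changes above 0 and 2 below (median 0.51), and 9 and 2 again without controls 4 and 6 (median 0.94). Ccl6, a CC chemokine of the myeloid lineage, was at 200.5, 152, 176, 168 and 239 CPM in controls 1, 3, 4, 5 and 6, and at 369.6, 272, 423 and 277 CPM in diabetic 1, 2, 4 and 5. All diabetic libraries lay above all controls, as for 4.27% of all genes, and control 6 was the highest control while control 4 lay among the rest. Without those controls the log2 fold change was 0.94 (edgeR quasi-likelihood adjusted p = 0.0761). Its log2 fold change was 0.84 (SE 0.23, edgeR quasi-likelihood adjusted p = 0.0672), short of the threshold. Cxcl14 also had all diabetic libraries above all controls, on 2 to 11 counts in control and 8 to 18 counts in diabetic libraries (1.44, adjusted p = 0.165). Pf4, platelet factor 4, which border macrophages also make, was at 14.3 ± 6.02 and 28.9 ± 11.1 CPM (1.01, adjusted p = 0.168), and Ccl24, a ligand of Ccr3 on eosinophils, at 5.47 ± 5.47 and 15.3 ± 7.01 CPM (1.50, adjusted p = 0.303). Cxcl12, a stromal ligand of Cxcr4, was at 1.15 ± 1.70 and 1.41 ± 0.953 CPM (log2 fold change 0.27, adjusted p = 0.907, and -0.30 without controls 4 and 6).

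Marker lists of the remaining cell types were read beside these values. The neutrophil list held 0.0274% to 0.0394% of control and 0.0319% to 0.0376% of diabetic counts, and the monocyte list 0.145% to 0.197% and 0.156% to 0.249%. The T and NK cell list held 0.0771% to 0.0968% and 0.0780% to 0.0999%, nearly all from Cd4 (891 and 879 CPM), which rat macrophages also carry. Muller glia and astrocyte genes held 1.08% to 1.78% and 1.30% to 1.42%, most of it from Apoe (11461.5 and 10817.7 CPM). Photoreceptor genes held 0.0232% to 0.126% and 0.0352% to 0.186%, inner retinal neuron genes 0.00748% to 0.0169% and 0.0108% to 0.0325%, and vascular genes 0.0108% to 0.0317% and 0.00946% to 0.0153%. None of these lists had its 2 highest libraries at controls 4 and 6, where most of the chemokines were highest. A share led by a single gene does not give the amount of a cell type. What part these cells had in the chemokine values was not tested.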

How the data were processed

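RNA of CD11b-sorted retinal cells from 5 control and 4 diabetic rats was analysed as the deposited table of raw counts per gene symbol (6228756 to 11332823 counts per library). Bcl2fastq 2.18.0.12, TopHat2 2.0.14, StringTie 1.2.4, edgeR and the build Rnor_6.0 are named in the submitters' processing notes, without roles. Which program counted the reads, and whether by strand, is not given in the sources used here. The authors' deposited comparison table held log2 fold changes and p-values, per the file headers, and the deposited transcript assemblies held TPM, per the file headers.

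Genes were kept by edgeR's filter (minimum count 10, minimum total 15), scaled by TMM and tested with edgeR 4.0.16 (quasi-likelihood, R 4.3.3), 4 diabetic against 5 control libraries, with Benjamini-Hochberg adjustment over 11748 genes at 0.05. CPM values are TMM-scaled, and log2 CPM used a prior count of 2. Standard errors were derived from the fold change and its two-sided p on the normal scale. The scripts were tested on simulated data. DESeq2 1.42.0, limma 3.58.1 (voom), other scalings, no filter, each library left out, controls 4 and 6 left out, the isolation share as covariate, a replicate block, and TPM (limma on log2 of TPM plus 1, absent transcripts set to 0) were the alternatives. The lists and the other ratios without controls 4 and 6 were added after seeing the data. No libraries agreed within sampling noise.

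The chemokines and the gene lists were chosen with earlier results of these data known. Beside the chemokines and their receptors the text names fixed reference genes, up to 4 genes per pathway list with the smallest p, and the 3 most correlated genes per chemokine. Some genes that this rule names are not reported here. Counting intervals cover counting error only, since the reads carry no molecular identifiers in the sources used here.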

Additional observations from a re-analysis of the deposited data

Results flagged for a closer look

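The ratio of Ccl7 to Ccl2 counts in diabetic 4 was 0.513, far from the other 3 diabetic libraries, of which the nearest was at 0.185. On the scale of the ratio itself, and not of its log2, the gap was 0.843 of the group's whole range. It was above Dixon's 95% critical value for 4 samples. Of 22 sets of values examined in this way (11 measures in each group) this was the 1 set past its critical value, and chance marks about 1 in 20. Diabetic 4 also had the lowest total count of all libraries (6228756), with 483 counts on Ccl7. The difference in the ratio between groups without it is 0.85 on the log2 scale.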

How the results depend on the processing

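The count of genes called over the whole table, 8, was the least stable value. It was 31 with upper-quartile factors, 29 with no factors, 42 with no filter, 598 with DESeq2, 4 with limma-voom, 0 without controls 4 and 6 (1775 at an unadjusted p of 0.05) and 1609 with the isolation share as covariate. Leaving out 1 library gave 0 to 75. It was 75 without control 1, 2 without diabetic 2, 1 without control 3 or control 5, and 0 without control 4, diabetic 1 or diabetic 4. Dropping the factors moved the median over the whole table from 0.0017 to 0.117 on the log2 scale, and 28 of 29 calls were then higher, against 5 of 8. Upper-quartile factors gave 27 of 31 higher. The cause was not tested.

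The count of chemokines called was 0 in 18 of 19 alternatives and 3 with the covariate. The count with groups apart was 0 in 12 of 13 and 4 without controls 4 and 6. Signs turned as follows. Without controls 4 and 6 the log2 fold change was 1.11 for Ccl2, 1.07 for Ccl3, 1.28 for Ccl4, 0.27 for Cxcl1 and 0.87 for Cxcl2. With limma-voom it was 0.044 for Ccl2 and 0.013 for Cxcl2, and with TPM 1.18 for Ccl2 and 2.02 for Ccl3. The TPM values set absent transcripts to 0. The reference transcript was present in 8 libraries for Ccl2 and for Ccl3, and in 4 for Ccl7. With 1 library left out the log2 fold change ran from -0.78 to 0.16 for Ccl2 (above 0 without control 6) and from -0.027 to 0.54 for Cxcl10 (below 0 without diabetic 5). Ccl7 and Cxcl16 kept their signs in all 19. The Ccl7 to Ccl2 difference ran from 0.85 to 1.53 with 1 library left out and was 1.19 (exact permutation p = 0.0571) without controls 4 and 6, on alternatives chosen after seeing the data.

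With the replicate number as a block the table gave 0 calls (1129 at an unadjusted p of 0.05), and the chemokines 0 (1 at an unadjusted p of 0.05, Ccl7 at 1.42). Under that block Ccl2 was 0.058 and Ccl4 0.086. The labels do not say that a number pairs samples. Deviations of same-numbered libraries correlated at 0.326, -0.070 and -0.22 over 500 genes, which is too few pairs to settle whether they are paired. Depth limits Ccl5, Cxcr6 and Cxcl14, which rest on few counts.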
